A study of Mus musculus with 9 samples.

Results

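Helix-loop-helix transcription factors of the E protein and TAL/LYL groups, their ID inhibitors, the adaptor Lmo2 and the homeobox factor Hhex were described in mouse MYCN-driven T cell lymphoma and in control CD4+ T cells. The 10 genes are Tcf3, Tcf4, Tcf12, Id1, Id2, Id3, Lyl1, Tal1, Lmo2 and Hhex. They were taken by symbol from a table of 46078 genes, and all 10 were among the 15401 genes with enough reads to be tested. The genes were chosen by their earlier fold changes between lymphoma and CD4 in these data and by their spread of counts among the lymphomas. Their levels in the groups and their spread among lymphomas are therefore given as a description, with no test.

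The lymphoma group holds 6 libraries (34, 53, 56, 70, 72 and 86) of MYCN-induced T cell lymphoma cells from the thymus. The CD4 group holds 3 libraries (1, 2 and 3) of CD4+ T cells from the spleen, and all samples are of strain C57BL/6J. The promoter that drives MYCN, the ages of the animals and whether each library is 1 animal are not given in the sources used here, so p-values measure the spread between these libraries. Thymus and lymphoma coincide, as do spleen and CD4, and organ and group cannot be told apart. Sex-linked transcripts split the same way, with Xist at 4.66 to 11.3 CPM (counts per 1000000 of the TMM-scaled library) in lymphoma and 493 to 582 CPM in CD4, and Ddx3y at 119 to 178 CPM and 0.191 to 0.734 CPM.

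E proteins bind the E-box motif as dimers and drive early thymocyte development, V(D)J recombination and the expression of pre-T cell receptor genes. ID proteins lack the DNA-binding basic region, pair with E proteins and keep them off DNA. Lyl1 and Tal1 are related helix-loop-helix factors that also pair with E proteins, and Lmo2 bridges them to LDB1 and GATA factors. Ectopic TAL1, LYL1, LMO2 and HHEX are well known in T cell leukaemia, and normal T cells shut these genes off as they leave the early progenitor stage.

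Reads in genes numbered 11170704 to 15769679 per lymphoma library and 8099960 to 10808828 per CD4 library. They made up 38.7 to 49.1% of all reads in lymphoma and 27.8 to 35.05% in CD4. Lymphoma 53 stood apart from the other lymphomas, with a mean Pearson r across genes of 0.891 with them, where the others had 0.936 to 0.943. Cd3e and Cd3d, chains of the T cell receptor complex, were at 149.7 to 217 and 386 to 512 CPM in lymphoma. In CD4 they were at 138 to 192 and 420.5 to 454 CPM. Cd4 itself was at 199 to 263 CPM in the CD4 libraries and at 6.04 to 71.9 CPM in lymphoma. Cd4 is named here because it defines the control population.

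The CD4 libraries also carried marker transcripts of other cell types, some of which are known to express members of the set. Summed over 11 B cell markers they held 1448 to 1761 CPM, against 9.86 to 16.03 CPM in lymphoma, and no marker of the list was at 0 in all libraries of a group. The B cell receptor chain gene Cd79a was at 8.16 to 10.1 CPM in CD4 and at most at 0.433 CPM in lymphoma. The 8 markers of plasmacytoid dendritic cells summed to 596 to 626 CPM in CD4 and 72.8 to 338 CPM in lymphoma. Their defining gene Siglech was at 60.7 to 69.1 CPM in CD4 and at most at 6 counts in any lymphoma. The 10 natural killer and innate lymphoid markers summed to 294 to 329 CPM in CD4 and 341 to 818 CPM in lymphoma, where Ncr1 had 0 counts in every library. Of the lymphoma sum 298 to 785 CPM was Gzma, a granzyme named after its values were seen. B cells and plasmacytoid dendritic cells are known to express Tcf4, Lmo2 and Hhex, and innate lymphoid cells Id2. Myeloid markers summed to 516 to 816 CPM in CD4 and 69.7 to 201 CPM in lymphoma, and megakaryocyte markers to 7.25 to 11.04 CPM and 1.04 to 6.79 CPM. Endothelial markers summed to 196 to 210.1 CPM in CD4 and 78.4 to 104 CPM in lymphoma. Cdh5 had 0 counts in lymphoma, Tek had 0 in CD4 and Cldn5 had 0 in both, while Egfl7 was higher in lymphoma (15.6 to 33.3 CPM, against 0.0954 to 0.459 CPM). Erythroid markers (101 to 361 CPM in CD4, 24.7 to 904 CPM in lymphoma) overlapped between the groups. Stromal and thymic epithelial markers (27.5 to 33.1 CPM in CD4, 33.1 to 88.8 CPM in lymphoma) had the thymic epithelial gene Foxn1 at 0 counts in CD4. In these bulk samples fewer cells of a type and less RNA per cell cannot be told apart.

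**Figure D1:**
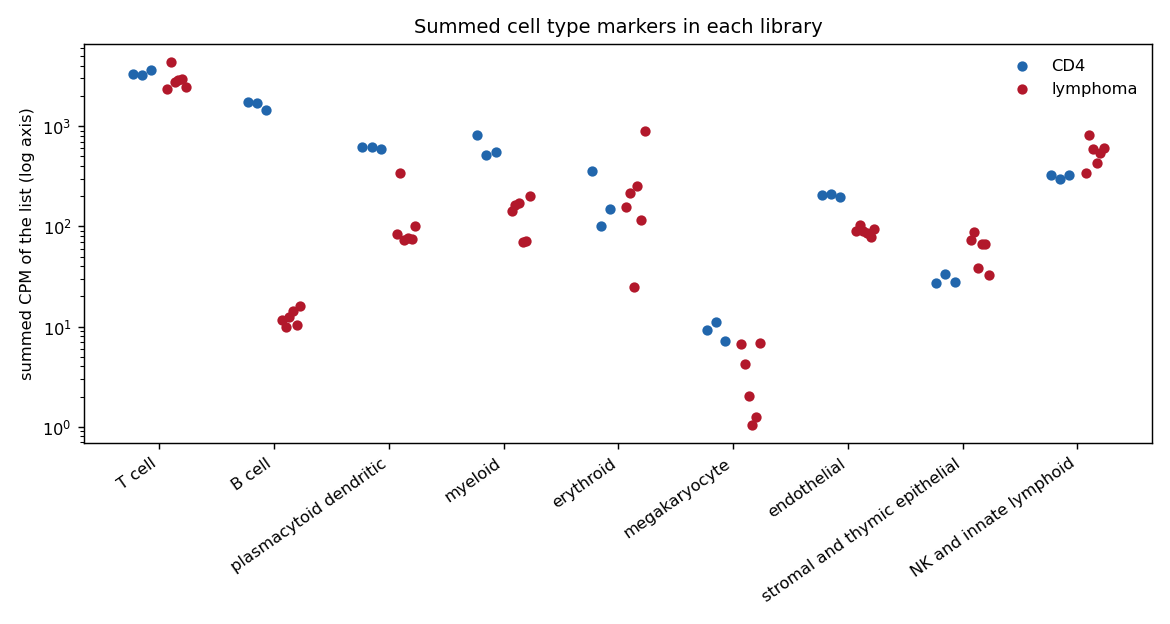
Summed CPM (log axis) of each cell type marker list in the 3 CD4 (blue) and 6 lymphoma (red) libraries, 1 point per library. B cell markers lie at 1448 to 1761 CPM in CD4 and at 9.86 to 16.03 CPM in lymphoma, while the T cell markers overlap between the groups.

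Of the 10 genes, 8 lay past an adjusted p of 0.05 in edgeR's quasi-likelihood test, 2 higher and 6 lower in lymphoma. Of all tested genes, 46.6% did so, 24.7% as higher and 21.9% as lower. Nothing is read from the count, since this contrast was known when the genes were chosen. Tcf12 and Lyl1 were the 2 not past the threshold. The median log2 fold change of the 10 genes was -2.57, where all tested genes had a median of 0.04. With Tal1 set at 3 counts in the shallowest lymphoma, the median of the 10 genes was -2.44. The groups did not overlap in CPM at 8 of the 10 genes, and at 44.9% of all tested genes. The exceptions were Id3 and Lyl1. The call of Id3 was lost without CD4 2, without CD4 3 and at an adjusted p under 0.01. That of Lmo2 was lost without CD4 1, with no filter beyond 1 count and at an adjusted p under 0.01.

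**Figure D2:**
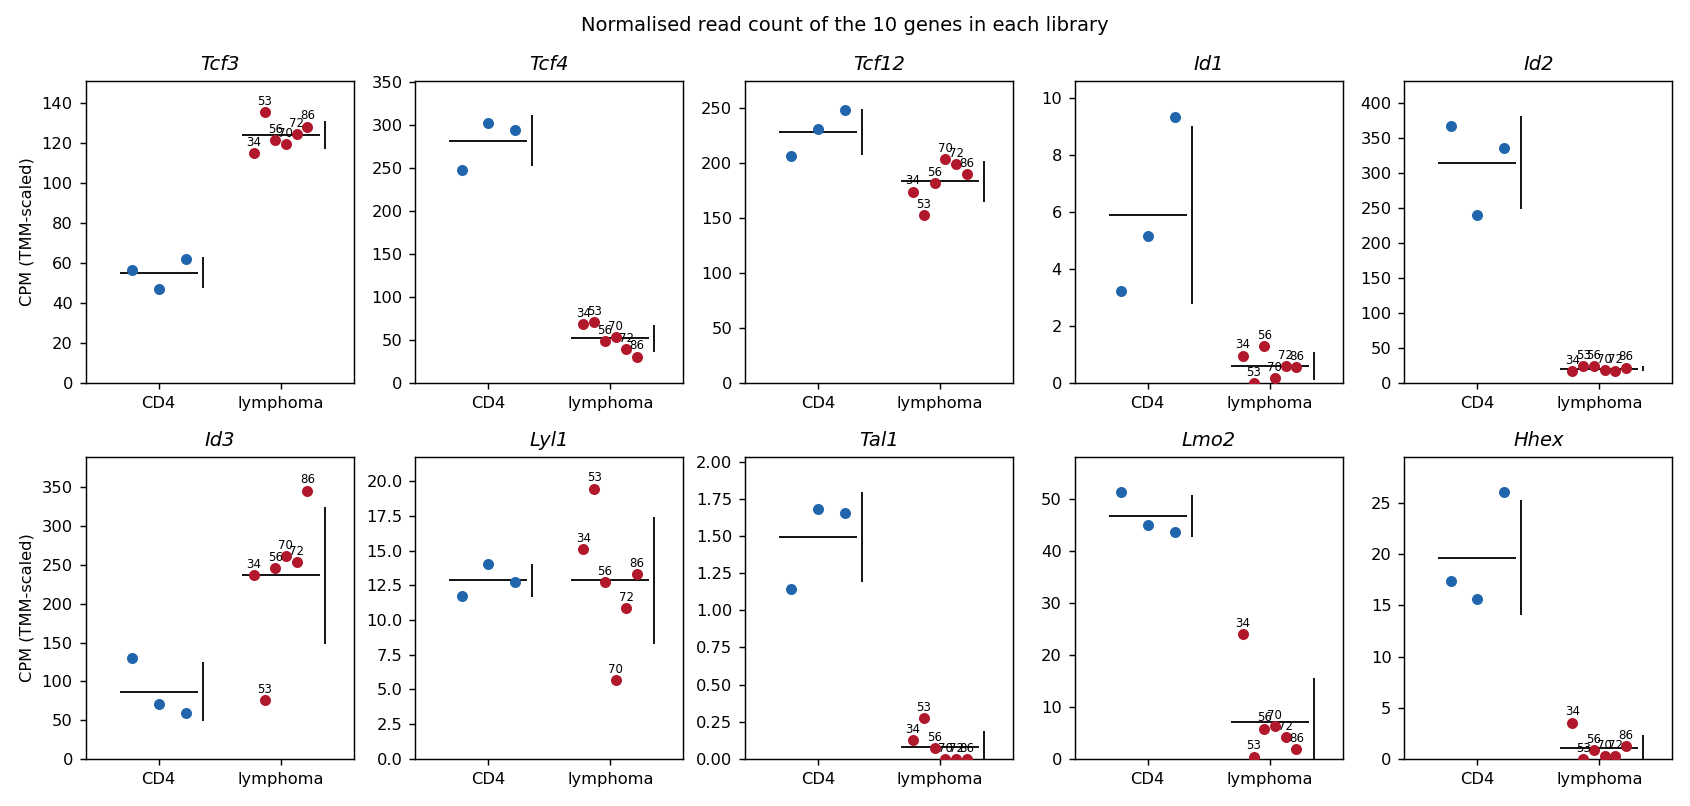
CPM of each of the 10 genes in CD4 (blue) and lymphoma (red) libraries, 1 point per library, with its own axis from 0 per gene. Horizontal lines are group means, vertical lines 1 SD either side (stopped at 0), and numbers name the lymphomas. Id3 and Lyl1 are the genes whose groups overlap, and lymphoma 34 lies above the other lymphomas for Lmo2 and Hhex.

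The E protein genes differed in direction, with Tcf3 higher and Tcf4 lower in lymphoma. Tcf3 (chr10:80409514-80433647, GRCm38), which encodes E2A, ran from 115 through a median of 123 to 136 CPM in lymphoma, and was at 56.6, 46.9 and 62.3 CPM in CD4 1, 2 and 3. All 6 lymphomas were above all 3 CD4 libraries, at 2.25-fold by the means (124 ± 7.13 CPM, SD, n = 6, and 55.3 ± 7.77 CPM, SD, n = 3). Its log2 fold change was 1.17 (SE 0.154).

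Tcf4, the E protein known for its role in plasmacytoid dendritic cells, ran from 31.0 in lymphoma 86 through a median of 51.3 to 71.1 CPM in lymphoma 53. It was at 248, 303 and 294 CPM in CD4 1, 2 and 3, and every lymphoma was below every CD4 library. The log2 fold change was -2.43 (SE 0.237). The Siglech and Cd79a values above move with it, and their part in the result was not tested.

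Tcf12 (chr9:71842688-72111871), which encodes HEB, the main partner of E2A in thymocytes, was at 153 to 204 CPM in lymphoma with a median of 186. It was at 207, 232 and 248 CPM in CD4. The groups lay apart by a narrow margin, 204 against 207 CPM, with a log2 fold change of -0.32 (SE 0.143). It moved past the threshold with RLE scaling, upper quartile scaling, DESeq2 and the filter of at least 10 counts in every library, lower in lymphoma in each.

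Summed over the E protein genes, reads came to 360.1 ± 9.83 CPM (SD, n = 6) over the lymphomas, against 566 ± 48.7 CPM (SD, n = 3) over CD4. The lymphomas were alike, at 349 to 377 CPM. Tcf4 differed most between the groups, with means of 52.3 CPM in lymphoma and 282 CPM in CD4. Tcf12 differed less (184 and 229 CPM), and Tcf3 went the other way (124 and 55.3 CPM). The B cell and plasmacytoid dendritic cell markers of the CD4 libraries move with Tcf4, and their part in the sum was not tested. The make-up of the sum differed between the groups. Tcf3 supplied 31.7 to 37.7% of it in lymphoma and 8.07 to 11.1% in CD4, and Tcf4 supplied 8.87 to 19.8% and 48.5 to 52.1%. Tcf12 supplied 42.5 to 54.8% and 39.8 to 41.0%. These are shares of 3′-end reads, not calibrated between genes, so they compare libraries and not the genes with each other.

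**Figure D3:**
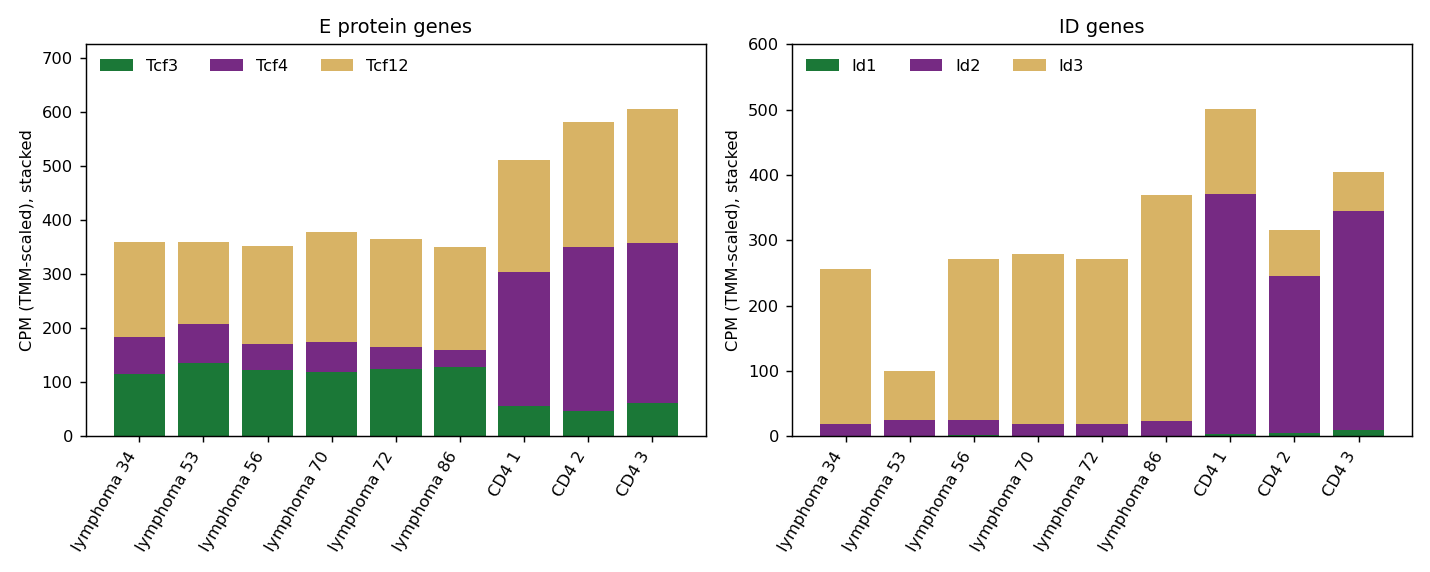
Stacked CPM of the E protein genes (left) and the ID genes (right) in each library. The E protein total is 349 to 377 CPM in every lymphoma and 511 to 604 CPM in CD4, and the ID reads are mostly Id2 in CD4 and mostly Id3 in lymphoma. Among the E protein genes Tcf4 differs most between the groups, while Tcf3 is higher in lymphoma.

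Id2 was low and Id3 mostly high in lymphoma relative to CD4. Id2 (chr12:25093799-25097140), the inhibitor needed for innate lymphoid cells and effector T cells, ran from 17.1 through a median of 20.3 to 24.3 CPM in lymphoma. It was at 367, 239.9 and 336 CPM in CD4 1, 2 and 3. All lymphomas were low and close together, and the mean was 15.2-fold higher in CD4 (log2 fold change -3.92, SE 0.185). Ncr1 of natural killer and innate lymphoid cells, at 8.26 to 9.35 CPM in CD4 and 0 counts in lymphoma, moves with it, and its part in the result was not tested. Ncr1 had the largest fall of its list. Of the 10 markers 7 were lower and 1 higher, beside 21.9% and 24.7% of all tested genes. Klrb1c was not past the threshold (log2 fold change -0.20). Sequence before the RefSeq start of Id2 is shown because it holds an E-box of the kind E proteins bind. In GENCODE M21 a longer Id2 transcript starts further upstream, and the window lies in an intron of it. The 30 bases at chr12:25096271-25096300 (minus strand, RefSeq, GRCm38.p6) are given 5′ to 3′ with the E-box in capitals, whose first base lies 196 bases upstream of the RefSeq start:
Id2: aatttgccacccCAGCTGggctctcgcccg

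Id3 (chr4:136143497-136145755), which is induced by T cell receptor signals, was at 129.95, 71.3 and 58.9 CPM in CD4 1, 2 and 3. In lymphomas 34, 56, 70, 72 and 86 it was at 237, 246, 261, 253 and 346 CPM. Lymphoma 53 was the exception, with 75.3 CPM, which lies among the CD4 values. The log2 fold change was 1.45 (SE 0.417), and 1.63 without lymphoma 53.

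Id1 (chr2:152736251-152737410), a target of BMP signalling, was low in both groups. It was at 3.24, 5.16 and 9.36 CPM in CD4, and ran from 0 counts in lymphoma 53 to 18 counts (1.31 CPM) in lymphoma 56. All lymphomas were below all CD4 libraries (log2 fold change -3.26, SE 0.803).

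Reads of the ID genes summed to 258 ± 87.4 CPM (SD, n = 6) over the lymphomas, against 407 ± 92.1 CPM (SD, n = 3) over CD4. The groups overlapped, since lymphoma 86 had 369 CPM and CD4 2 had 316 CPM. Lymphoma 53 was lowest, at 99.6 CPM. Id3 supplied 75.6 to 93.8% of ID reads in lymphoma and 14.6 to 25.97% in CD4, while Id2 supplied 6.01 to 24.4% and 73.4 to 83.1%. The highest Id2 share of a lymphoma was that of lymphoma 53.

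Of the TAL/LYL pair, Lyl1 had reads in every lymphoma and Tal1 in 3 of 6. Lyl1 (chr8:84701457-84704715) ran from 5.70 in lymphoma 70 through a median of 13.01 to 19.5 CPM in lymphoma 53, and was at 11.7, 14.0 and 12.8 CPM in CD4. The CD4 values lie inside the lymphoma range, the means were 12.9 ± 4.56 (SD, n = 6) and 12.8 ± 1.15 CPM (SD, n = 3), and the log2 fold change was 0.00 (SE 0.343). Exons of Lyl1 overlap those of Nfix on the opposite strand. Nfix was at 72.7 to 129 CPM in lymphoma and 25.3 to 39.5 CPM in CD4, and the strand setting of the counting is not given in the sources used here, so the Lyl1 values are uncertain.

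Tal1 (chr4:115056426-115071755), a master regulator of blood stem and erythroid cells, had 2, 3, 1, 0, 0 and 0 counts in lymphomas 34, 53, 56, 70, 72 and 86. It had 12, 14 and 18 counts in CD4 1, 2 and 3 (1.15, 1.68 and 1.65 CPM). No lymphoma exceeded 3 counts. The CD4 mean was 5.45-fold above 3 counts in the shallowest lymphoma. Lymphoma 53 is that library and had 3 counts, so the ratio is not a bound that covers counting error.

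No link between sequence and counts was tested for the regions upstream of Lyl1 and Tal1. They are shown because the counts of the pair differ in lymphoma, at 93 or more for Lyl1 and at most 3 for Tal1. The count of Lyl1 is within the limit set by Nfix. Each region is given as follows. Each is the 250 bases before a RefSeq start (GRCm38.p6, plus strand, chr8:84701207-84701456 and chr4:115056176-115056425), 5′ to 3′, with E-boxes (CANNTG, which reads alike on both strands) in capitals. The Lyl1 region holds 1 E-box, CACCTG, whose first base lies 235 bases upstream of the start, and the Tal1 region holds 0:
Lyl1: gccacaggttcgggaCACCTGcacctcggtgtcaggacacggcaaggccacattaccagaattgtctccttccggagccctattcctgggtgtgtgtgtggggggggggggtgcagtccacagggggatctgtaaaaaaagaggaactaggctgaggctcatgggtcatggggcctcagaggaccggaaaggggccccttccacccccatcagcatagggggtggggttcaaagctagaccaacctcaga
Tal1: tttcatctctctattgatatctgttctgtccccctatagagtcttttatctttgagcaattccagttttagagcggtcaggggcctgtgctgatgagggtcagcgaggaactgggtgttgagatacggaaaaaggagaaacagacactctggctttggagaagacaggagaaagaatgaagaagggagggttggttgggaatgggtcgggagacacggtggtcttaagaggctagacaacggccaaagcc

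The E-box CANNTG was found in 66.2% of 32851 RefSeq regions of the same length. The form CAGCTG, that of Id2, was in 4271 of these regions (13%) and the form CAGGTG or CACCTG in 17.2%. The form CACGTG, which MYC family factors bind, was in 6.02% of all regions and in 0 of the 10 regions of the 7 genes that were matched. Sequences of Id1, Lmo2 and Tcf4 were not used here. The region before another RefSeq start of Tal1 (chr4:115057561-115057810, plus strand) held 0 E-boxes and is not shown.

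Lmo2 and Hhex were lower in lymphoma and varied widely among the lymphomas. Lmo2 (chr2:103957986-103981878), the LIM-only adaptor, was at 24.0, 0.457, 5.82, 6.25, 4.19 and 1.88 CPM in lymphomas 34, 53, 56, 70, 72 and 86. It was at 51.3, 45.1 and 43.8 CPM in CD4 1, 2 and 3. Lymphoma 34 was highest and lymphoma 53 lowest, 52.5-fold apart, and all 6 were below CD4. That ratio rests on 5 counts in lymphoma 53, the shallowest lymphoma library. The log2 fold change was -2.71 (SE 0.813), and -3.59 without lymphoma 34.

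Hhex (chr19:37434810-37440731), a homeobox factor of progenitors and B cells, had 55, 0, 12, 4, 4 and 17 counts in the lymphomas in the same order (3.55, 0, 0.873, 0.245, 0.262 and 1.23 CPM). It was at 17.4, 15.6 and 26.1 CPM in CD4. The highest and lowest lymphomas were again 34 and 53. The log2 fold change was -4.23 (SE 0.872), and -5.16 without lymphoma 34. For Lmo2 and Hhex too, the B cell marker sums of the libraries move with the difference between groups, and their part in it was not tested. Those sums were 11.5 CPM in lymphoma 34 and 9.86 CPM in lymphoma 53, inside the range of the other lymphomas or just below it. Other marker sums also varied among the lymphomas. Myeloid sums were 142 CPM in lymphoma 34 and 163 CPM in lymphoma 53, within 69.7 to 201 CPM. Megakaryocyte sums were 6.77 and 4.20 CPM, within 1.04 to 6.79 CPM. The part of cell types in the spread of Lmo2 and Hhex was not tested.

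Variation among the 6 lymphomas set the genes apart. The SD of log2 CPM (prior count 2) was 0.08 for Tcf3, 0.15 for Tcf12, 0.22 for Id2 and 0.46 for Tcf4. It was 0.59 for Lyl1, 0.60 for Tal1 (which is at or under 3 counts in every lymphoma), 0.77 for Id3, 1.19 for Id1, 1.61 for Hhex and 1.78 for Lmo2. With a prior count of 0.5 the SD was 1.88 for Id1, 1.30 for Tal1 and 2.25 for Hhex. That of Lmo2 was at most 1.99 under any alternative, so the order of the low-count genes depends on the prior count. Level in what follows is the average log2 CPM over all 9 libraries. For Lmo2 and Hhex it lies above their level in lymphoma, with means of 46.7 and 19.7 CPM in CD4 and 7.10 and 1.03 CPM in lymphoma. Their shares therefore do not compare them with genes of like level in the lymphomas. Tested genes within 0.5 log2 CPM of Lmo2 had a median SD of 0.38, and 98.0% of them had a smaller SD than Lmo2. For Hhex the share was 93.5% (median SD 0.55) and for Id3 it was 94.4% (median SD 0.28). At the other end, 0.67% of genes of like level had a smaller SD than Tcf3 (median SD 0.29). The spread of Id3 rests on lymphoma 53, without which it was 0.22. That of Tcf12 was 0.09 without the same library, and that of Lyl1 was 0.31 without lymphoma 70.

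**Figure D4:**
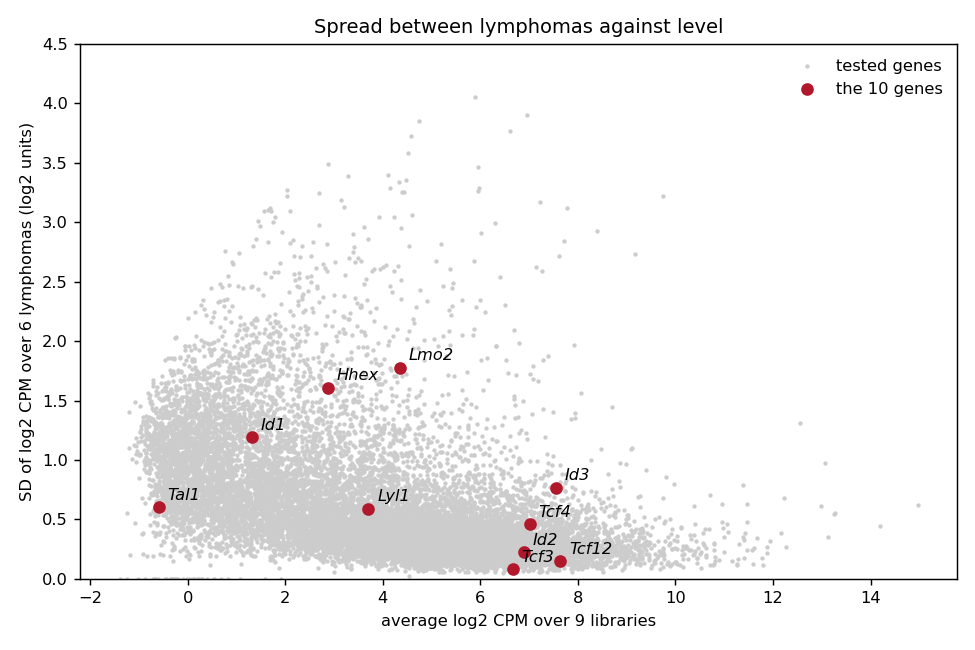
SD of log2 CPM over the 6 lymphomas against average log2 CPM over 9 libraries, for all tested genes (grey) and the 10 genes (red). Lmo2 (SD 1.78) and Hhex (1.61) lie near the upper edge at that average, which is above their level in lymphoma, and Tcf3 (0.08) lies at the lower edge.

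The genes most like Lmo2, Id3 and Lyl1 in their pattern over the 6 lymphomas were sought among 9424 genes, by the root mean square difference of centred log2 CPM. For Lmo2 these were Prss57, a serine protease of myeloid granules (0.48 log2 units), Ffar2, a receptor for short-chain fatty acids (0.61), and Gstm1, a glutathione transferase (0.62). Prss57 was at 54.3 CPM in lymphoma 34, at 1.92 CPM in lymphoma 53 and at 9.02 to 27.9 CPM in the other lymphomas. For Id3 they were Fam199x, Ccdc18 and Dnajc6, an auxilin that uncoats clathrin vesicles (0.07 to 0.08). Each had its lowest value in lymphoma 53 and its highest in lymphoma 86. Of all tested genes, 34.4% had their lowest lymphoma value in lymphoma 53 and 30.5% their highest. For Lyl1 they were Chaf1a, a chromatin assembly factor subunit, Aplp2 and the mitochondrial ribosomal protein gene Mrpl23 (0.16 to 0.22). Each had its highest value in lymphoma 53 and its lowest in lymphoma 70.

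Genes around the network were then examined, from lists based on textbook roles but chosen with earlier results of these data known. Nothing is therefore read from the share of changed genes in a list. Of 16 genes known to be controlled by E proteins, 13 were tested and 11 changed, 3 higher and 8 lower in lymphoma (84.6%, beside 46.6% of all tested genes), with a median log2 fold change of -2.15. The 8 include Cd4 (log2 fold change -2.76), which defines the control population, so its direction is not independent of the choice of control. Gfi1, a repressor needed in thymocytes, averaged 359 ± 224 CPM (SD, n = 6) where CD4 had 17.4 ± 6.92 CPM (SD, n = 3), and ranged from 48.2 CPM in lymphoma 53 to 662 CPM in lymphoma 72 (log2 fold change 4.36, SE 0.797, edgeR adjusted p 0.00155). Cdk6, a G1 kinase repressed by E2A, averaged 1468 ± 566 CPM (SD, n = 6) where CD4 had 86.1 ± 5.21 CPM (SD, n = 3) (4.09, SE 0.441, edgeR adjusted p 2.69e-05). Socs3, a feedback inhibitor of cytokine signalling, fell by 5.38 (SE 0.567, edgeR adjusted p 2.37e-05) and Dntt, which adds bases at V(D)J junctions, fell by 4.12 (SE 0.750, edgeR adjusted p 0.000844) on the log2 scale. The B cell and plasmacytoid dendritic cell marker sums of the CD4 libraries move with Dntt, and their part in its fall was not tested. The genes without enough reads for a test were Rag1, Rag2 and Ptcra, which act in V(D)J recombination and the pre-T cell receptor. They had at most 2, 0 and 1 counts in any lymphoma and at most 0, 1 and 0 counts in any CD4 library.

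Of 19 partners and relatives of the TAL/LMO complex, 14 were tested, with 7 higher and 1 lower (57.1%, beside 46.6% of all tested genes), and the median log2 fold change was 0.23. With RLE or upper quartile scaling 5 were higher and 2 lower. Ssbp3 and Ssbp4, which stabilise LDB1, rose by log2 fold changes of 1.56 (SE 0.230, edgeR adjusted p 0.000190) and 1.31 (SE 0.192, edgeR adjusted p 0.000191), in 6 of 6 lymphomas above all CD4 libraries. Gata1, the erythroid GATA factor, fell by 3.31 (SE 0.760, edgeR adjusted p 0.00379) on the log2 scale from 4.04 ± 2.57 CPM (SD, n = 3). Megakaryocyte marker sums were also lower in lymphoma, while erythroid sums overlapped, and the part of other cell types in the fall of Gata1 was not tested. The LMO2 relative Lmo4 was not past the threshold and ranged from 1.90 CPM in lymphoma 72 to 110.3 CPM in lymphoma 53. Lmo4 was named after its values were seen.

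Of 14 genes of early progenitors, 12 were tested, 0 were higher and 6 lower, with a median log2 fold change of -2.32. The share changed, 50%, is near the 46.6% of all tested genes, of which 21.9% were lower. At an unadjusted p under 0.05 in edgeR, 2 were higher, Cd34 and Zfpm1, whose adjusted p were 0.0593 and 0.0731. DESeq2 called 1 gene of the list higher and limma voom 0. Mef2c and Bcl11a, factors of progenitors that B cells and plasmacytoid dendritic cells also use, had log2 fold changes of -7.14 (SE 0.352, edgeR adjusted p 1.36e-07) and -5.89 (SE 0.867, edgeR adjusted p 0.000560). The B cell marker values of the CD4 libraries move with both, and their part was not tested. Bcl11a was at 20.8 CPM in lymphoma 34 and at 1.57 to 3.47 CPM in the other lymphomas, and its log2 fold change was -7.14 without lymphoma 34. Lymphoma 34 was the highest lymphoma for 5 of the 12 tested progenitor genes, where it was the highest for 12.7% of all tested genes. The 5, named after their values were seen, were Kit, Bcl11a, Spi1, Erg and Fli1. Kit, the stem cell factor receptor, was at 7.54 CPM in lymphoma 34 and at most at 1.55 CPM in the other lymphomas.

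Of 15 genes that feed into Id expression, 13 were tested, 1 was higher and 5 lower, with a median log2 fold change of -1.01. The share changed, 46.2%, is near the 46.6% of all tested genes. Smad7 and Tgfbr2, an inhibitor and a receptor of TGF-beta signalling, had log2 fold changes of -3.70 (SE 0.569, edgeR adjusted p 0.000458) and -2.52 (SE 0.317, edgeR adjusted p 6.37e-05). Smad6, an inhibitor of BMP signalling, was not detected in CD4, where all 3 libraries had 0 counts. The lymphoma mean was at least 5.69-fold higher (against 3 counts in the shallowest CD4 library). It had 0 counts in lymphomas 53 and 86, which that bound does not describe. Of the alternatives, 6 ended the call of Smad6, and the omission of any 1 CD4 library was enough. Egr2, a driver of Id3 after receptor signals, averaged 19.0 ± 11.9 CPM (SD, n = 6) over lymphomas, against 17.1 ± 4.81 CPM (SD, n = 3) over CD4, and was not past the threshold (edgeR adjusted p 0.823). Egr1 of the same list was lower in lymphoma (log2 fold change -1.01, SE 0.362, edgeR adjusted p 0.0395). Egr3 lay below CD4 in every lymphoma but was not past the threshold (-1.78, SE 0.898, edgeR adjusted p 0.125). Egr1, Egr2 and Egr3 were named after their values were seen.

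Of 14 other helix-loop-helix factors, 4 were tested, 0 were higher and 2 lower (50%, beside 46.6% of all tested genes). These were the repressors Bhlhe41, which fell by 2.63 (SE 0.419, edgeR adjusted p 0.000338), and Bhlhe40, which fell by 1.72 (SE 0.391, edgeR adjusted p 0.00353) on the log2 scale. Without CD4 3 the change of Bhlhe40 was -0.94 and its call was lost. The other 2 tested genes, Ascl2 and Bhlha15, had edgeR adjusted p of 0.102 and 0.311. At an unadjusted p under 0.05 in edgeR 0 were higher, and DESeq2 and limma voom called 0 higher. Id4, the remaining ID gene, was not tested and had at most 1 count in any library. These 3 were named after their values were seen.

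**Figure D5:**
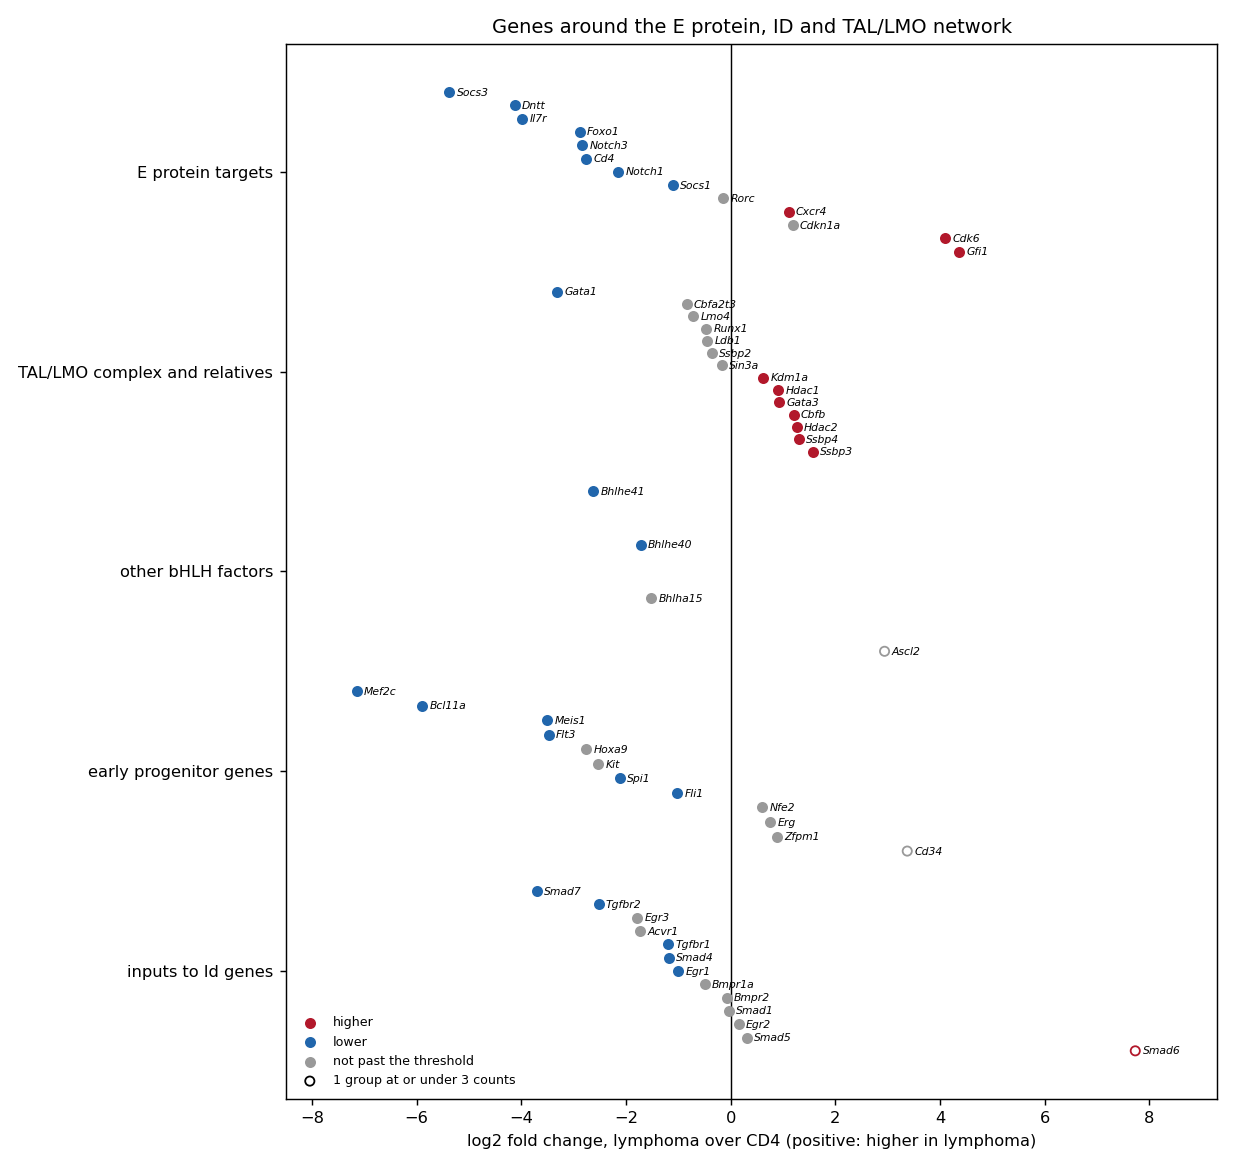
Log2 fold change, lymphoma over CD4, of the tested genes of each list around the network. Red points rose and blue points fell past an adjusted p of 0.05, grey points did not pass, and open points mark genes with at most 3 counts in every library of 1 group, whose fitted position is not a bound. Of the E protein targets 8, Cd4 among them, lie left of 0 and 3 right of it past the threshold, and Smad6 is drawn at its fitted value.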

How the data were processed

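Transcript 3′ ends of total RNA were sequenced, per the labels. Raw read counts per Ensembl gene in 9 libraries make up the deposited table, per the file headers. Its rows for unassigned reads, which include reads that align to several places, were left out of library sizes and tests. FastQC, HISAT2, SAMtools and HTSeq, with builds mm10 and GRCm38, are named without versions per the submitters' processing notes. The annotation and strand setting are not given in the sources used here.

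Counts were tested with edgeR 4.0.16 (R 4.3.3): filterByExpr with a minimum count of 10, TMM scaling, glmQLFit (robust) and glmQLFTest over all 9 libraries, with Benjamini-Hochberg adjustment over 15401 genes and 0.05 as threshold. The SE is the absolute log2 fold change over the square root of F. The script was tested on simulated data. Alternatives were other scalings, filters, DESeq2 1.42.0, limma 3.58.1 (voom), a threshold of 0.01, and leaving out each library. Bounds use 3 counts in the shallowest library, 0.274 CPM in lymphoma and 0.360 CPM in CD4. They cover counting error only, and only for libraries with 0 counts. Gene positions are from GENCODE M21 (GRCm38).

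The members and lists were chosen with earlier results of these data known. Named genes are the 10 members, the 2 largest rises and 2 largest falls past the threshold of each list around the network, the first 2 genes of each marker list (some of which are not reported here), and, for the 3 members with the largest lymphoma SD and a mean of at least 5 CPM, the 3 genes of nearest pattern with an average log2 CPM of at least 3.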

Additional observations from a re-analysis of the deposited data

Results flagged for a closer look

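For each measure, the outermost of the 6 lymphomas was set against its neighbour with Dixon's gap ratio at the 95% level. Chance alone gives such a gap in about 1 in 20 groups. The ratio was taken on CPM, and 5 of 22 measures were flagged. Chance alone would give about 1.1 only for measures chosen without regard to spread. The 22 include the member genes, chosen partly by their spread among lymphomas, and sums of these genes. The 5 flags therefore cannot be set against 1.1, and nothing is read from their number. For Lmo2 and Hhex the gap is a description only, since the genes were chosen partly by their spread among lymphomas. Lymphoma 34 stood apart in Lmo2, at 24.0 CPM where the others had 0.457 to 6.25 CPM, and in Hhex, at 3.55 CPM where the others had 0 to 1.23 CPM. In log2 CPM centred on the lymphoma mean, lymphoma 53 lay about as far below as lymphoma 34 lay above. The values were -2.75 and 2.55 for Lmo2, and -2.20 and 2.37 for Hhex, so the gap depends on the scale. Lymphoma 53 stood apart in the summed T cell markers, at 4365 CPM against 2356 to 2942 CPM, with Thy1 at 1535 CPM against 501 to 611 CPM. It also stood apart in the summed plasmacytoid dendritic cell markers, at 338 CPM against 72.8 to 101 CPM, of which Irf8 made up 269 CPM. Siglech and Klk1, the defining genes of that list, were at 0.0913 CPM and 0 CPM in lymphoma 53. Cox6a2 of the same list was at 16.4 CPM there and at most at 0.433 CPM in the other lymphomas. Bst2 (22.7 CPM) and Runx2 (5.84 CPM) were also highest in lymphoma 53, while Pacsin1 and Spib were not. Lymphoma 86 stood apart in the summed erythroid markers, at 904 CPM against 24.7 to 255 CPM.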

How the results depend on the processing

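Over the 18 alternatives the number of the 10 genes past the threshold was 5 to 9. Asking for 10 counts or more in each library gave 5, with 6 of the 10 tested, and leaving out 1 library gave 7 or 8. Of the E protein targets 7 passed with that filter, where 8 were tested, and 7 passed at an adjusted p under 0.01. Between 8 and 12 passed when 1 library was left out. The other factors with helix-loop-helix domains gave 1 to 3 genes when 1 library was left out. The counts for the TAL/LMO list, the progenitor genes and the inputs to Id genes stayed within 1.5 times, as did the 7174 genes changed in all (4915 at 0.01, and 5871 to 8137 with 1 library left out). All fold changes of the members kept their sign wherever they could be tested, except that of Lyl1, which lay between -0.16 and 0.20. Among markers not past the threshold, the fold change of Cd3d was -0.034 with upper quartile scaling and that of Klrb1c ran from -0.75 to 0.056 (without lymphoma 53) when 1 library was left out. No paired analysis was possible because the replicate numbers of the groups do not overlap. Depth limits Tal1, Id1 and Hhex, which lay at or near 3 counts in some lymphomas, and Lmo2 in lymphoma 53, where it had 5 counts.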
